A study of Mus musculus with 24 samples.

Results

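The genes described here are Myc and 9 genes of its MAX network, 10 of the 24506 genes in an exon count table of cultured mouse B-cell progenitors. They were chosen by symbol: the 3 MYC paralogs Myc, Mycn and Mycl, their partner Max, the antagonists Mxd1, Mxd3, Mxd4, Mxi1 and Mnt, and the MAX-like gene Mlx. All 10 passed the filter on low counts that kept 14550 genes for testing. The series as a whole asks how the transcription factors EBF1 and PAX5 act on the Myc gene during pro-B cell expansion. Fetal liver cells of C57BL6/J mice of wild-type, Ebf1-deficient or Pax5-deficient genotype had been expanded on OP9 stromal cells with KIT ligand, FLT3 ligand and interleukin-7, and every RNA group carried the retroviral vector pMiG. Wild-type cells (WT+pMiG) received the empty vector. Ebf1-deficient cells received the empty vector (Ebf1_KO+pMiG, called Ebf1-KO here), the vector with Ebf1 (Ebf1_KO+pMiG-Ebf1) or the vector with Pax5 (Ebf1_KO+pMiG-Pax5). Pax5-deficient cells likewise received the empty vector (Pax5_KO+pMiG, called Pax5-KO here), the vector with Ebf1 (Pax5_KO+pMiG-Ebf1) or the vector with Pax5 (Pax5_KO+pMiG-Pax5). Each of these 7 groups had 2 libraries, 14 in all. The labels give no fetal age and do not say whether the 2 libraries of a group came from separate animals or cultures. A p-value here thus reflects no more than how far libraries of the same group lie apart, taken over all 7 groups together. EBF1 binding was measured by chromatin immunoprecipitation in another cell, the transformed mouse pre-B line 230-238, with 2 precipitations and 1 input behind 1 list of peaks. Contacts of the Myc start came from H3K4me3 PLAC-seq, an assay that captures chromatin contacts of marked promoters, in wild-type (3 libraries) and Ebf1-deficient (4 libraries) fetal liver cells, deposited as 1 pooled profile per genotype.

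MYC proteins bind DNA as heterodimers with MAX at the E-box CACGTG and raise transcription of genes for ribosome production, nucleotide synthesis and metabolism. The MXD proteins, MXI1 (also called MXD2) and MNT pair with the same MAX and repress through the same sites, so the balance of MYC and its antagonists is studied as a switch between growth and rest. MLX is a parallel partner, which pairs with the glucose-sensing MondoA (gene Mlxip) and also with some MXD proteins and MNT. In B-cell progenitors Myc is known for driving growth and division under interleukin-7 signalling, while Mycn is the paralog that partly takes its place in early lymphoid cells.

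The promoters of the network's own genes were searched for the sites that MYC, MAX and EBF1 bind. RefSeq promoter windows (build GRCm38.p6, 250 bases before to 50 bases after a start) matched 9 of the 10 genes, in 11 windows, with no window for Myc used here. CACGTG was found in 4 of the 11 windows (36.4%), those of Max, Mxd4, Mnt and Mlx, and in 7.15% of all 32851 promoter windows. CCCNNGGG, the core of the palindrome that EBF1 binds, was found in 3 windows (27.3%), of Mycn, Mxd3 and one of the 3 Mxi1 windows (at an internal start), against 13.7% of all windows. Both motifs read the same on both strands and were searched once, and they do not overlap each other. The longer palindrome, with a T before and an A after this core, was in 0 of the 11 windows and in 0.904% of all. EBF1 peaks of the pre-B line overlapped 4 of the 11 windows (36.4%), of Mycl, Mnt and 2 windows of Mxi1, against 8.14% of all windows. The 2 Mxi1 windows overlap each other and were hit by the same peak. By gene it was 3 of 9, and no share by gene over all promoters was computed. The members all passed the filter on low counts, while the 32851 windows were not limited to such genes. Shares of the motifs and of peak overlap among windows of tested genes alone were not computed. The windows printed are given 5′ to 3′ in the sense of transcription. They are those with a CACGTG, that of Mycn, and the Mxi1 window with both a CCCNNGGG and a peak. Mycn is included as the 1 member called by edgeR in Ebf1-KO against wild type, where 14.7% of genes were called. Capitals mark CACGTG or CCCNNGGG, and -1 is the base before the start.
Max, chr12:76962199-76962498, minus strand, CACGTG from -3: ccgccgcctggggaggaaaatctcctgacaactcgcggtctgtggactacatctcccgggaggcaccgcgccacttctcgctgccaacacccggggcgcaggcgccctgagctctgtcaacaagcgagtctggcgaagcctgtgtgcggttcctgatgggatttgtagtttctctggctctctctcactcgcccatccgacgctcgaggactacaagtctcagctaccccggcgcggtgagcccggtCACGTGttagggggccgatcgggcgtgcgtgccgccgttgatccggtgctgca
Mxd4, chr5:34187661-34187960, minus strand, CACGTG from -219: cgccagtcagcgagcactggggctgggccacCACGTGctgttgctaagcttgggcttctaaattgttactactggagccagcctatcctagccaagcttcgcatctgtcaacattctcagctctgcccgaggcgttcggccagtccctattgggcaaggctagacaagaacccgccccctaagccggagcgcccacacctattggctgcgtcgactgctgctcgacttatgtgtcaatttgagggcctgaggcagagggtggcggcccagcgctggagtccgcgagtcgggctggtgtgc
Mnt, chr11:74830674-74830973, plus strand, CACGTG from -123: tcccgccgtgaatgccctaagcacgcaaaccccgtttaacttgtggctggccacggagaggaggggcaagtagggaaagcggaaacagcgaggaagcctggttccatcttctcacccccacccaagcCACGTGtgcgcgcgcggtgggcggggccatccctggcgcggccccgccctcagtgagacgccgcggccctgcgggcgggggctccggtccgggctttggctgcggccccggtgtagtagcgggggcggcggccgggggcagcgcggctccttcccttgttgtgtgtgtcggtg
Mlx, chr11:101087040-101087339, plus strand, CACGTG from -40: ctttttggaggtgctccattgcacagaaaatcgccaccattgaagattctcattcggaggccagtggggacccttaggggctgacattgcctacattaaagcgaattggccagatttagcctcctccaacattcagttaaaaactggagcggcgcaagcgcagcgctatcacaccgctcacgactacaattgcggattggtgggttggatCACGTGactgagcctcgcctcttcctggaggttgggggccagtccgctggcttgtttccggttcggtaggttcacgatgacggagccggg
Mycn, chr12:12941787-12942086, minus strand, CCCNNGGG from -59: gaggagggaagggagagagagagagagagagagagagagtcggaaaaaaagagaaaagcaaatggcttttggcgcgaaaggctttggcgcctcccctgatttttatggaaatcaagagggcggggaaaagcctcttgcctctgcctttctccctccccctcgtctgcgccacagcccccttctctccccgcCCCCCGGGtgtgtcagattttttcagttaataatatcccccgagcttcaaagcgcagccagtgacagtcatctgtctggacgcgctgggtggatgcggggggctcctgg
Mxi1, chr19:53329163-53329462, plus strand, CCCNNGGG from -26: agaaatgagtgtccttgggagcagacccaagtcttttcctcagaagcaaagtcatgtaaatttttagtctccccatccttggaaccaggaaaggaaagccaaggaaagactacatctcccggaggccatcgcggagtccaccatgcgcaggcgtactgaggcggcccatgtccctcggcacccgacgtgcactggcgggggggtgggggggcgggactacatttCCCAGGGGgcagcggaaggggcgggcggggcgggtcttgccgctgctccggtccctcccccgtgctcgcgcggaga
A match describes these letters only. The Mnt peak covered 43 bases of its window, and the Mxi1 peak covered 79 bases of the window shown.

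Total exon counts were 16118136 to 42076718 per library. Within a group the 2 libraries had correlations of log2 CPM (counts per 1000000 counts of the library) across all tested genes between 0.895 in Pax5_KO+pMiG-Ebf1 and 0.971 in Ebf1-KO, and they differed beyond sampling noise in every group. In the column headers every replicate 1 carries one run tag and every replicate 2 another; what the tag marks is not given, so differences within replicate number and fits with that number as a block stand beside the main results. The targeted genes followed the labels for Pax5, at 412 and 333 CPM in wild type against 20.1 and 12.3 CPM in Pax5-KO. With its vector Pax5 was at 429 and 399 CPM in Ebf1-deficient and 746 and 440 CPM in Pax5-deficient cells. In Ebf1_KO+pMiG-Ebf1 it was at 37.2 and 33.1 CPM. Exon counts of Ebf1 remained at 244 and 282 CPM in Ebf1-KO against 966 and 1102 CPM in wild type, and the table does not separate deleted from remaining exons. In Pax5-KO Ebf1 was at 315 and 241 CPM. With its vector it was at 857 and 893 CPM in Ebf1-deficient and 1644 and 1483 CPM in Pax5-deficient cells. The level reached with each vector thus differed between the knockouts, and its part in the vector effects below was not tested. The label pro-B was met unevenly. Early B-cell markers (12 genes) summed to 10461 and 9586 CPM in wild type, 153 and 171 CPM in Ebf1-KO, where Vpreb2 and Vpreb3 were at 0, and 1577 and 1687 CPM in Pax5-KO. Myeloid markers (10 genes) summed to 38.5 and 40.1 CPM in wild type and 615 and 542 CPM in Ebf1-KO. T-cell markers (10 genes) summed to 36.0 and 19.3 CPM in wild type and 106 to 540 CPM elsewhere, and markers of natural killer and innate lymphoid cells (8 genes) to 0.725 and 1.72 CPM in wild type and 69.6 to 309 CPM elsewhere. Stromal markers (10 genes) summed to 1.44 to 92.2 CPM over all libraries, highest in Ebf1_KO+pMiG-Pax5, with 3 to 9 of the 10 at 0. These are bulk samples, in which fewer cells of a type and less RNA per cell cannot be told apart, and the part of other cell types in the results below was not tested.

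Myc, the main driver of growth in the family (chr15:61985341-61990361 in mm10, plus strand, exon length 2394 bases), was lowest where Pax5 was put into Ebf1-deficient cells and highest where Pax5 was put into Pax5-deficient cells. Its level was 299 and 248 CPM in wild type, 143 and 187 CPM in Ebf1-KO, 308 and 418 CPM in Ebf1_KO+pMiG-Ebf1 and 66.8 and 84.3 CPM in Ebf1_KO+pMiG-Pax5. In Pax5-deficient cells it was 277 and 344 CPM with the empty vector, 307 and 445 CPM with Ebf1 and 499 and 670 CPM with Pax5. The lowest pair and the highest pair stood apart from every other library, while wild type overlapped Pax5-KO, and Pax5-KO overlapped both groups given Ebf1. Myc was higher in replicate 2 than in replicate 1 in all 6 knockout groups and lower in wild type. In order, the group means were 75.6 ± 12.4, 165 ± 30.5, 274 ± 36.1, 311 ± 47.8, 363 ± 77.5, 376 ± 97.8 and 584 ± 121 CPM (SD, n = 2 each).

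**Figure D1:**
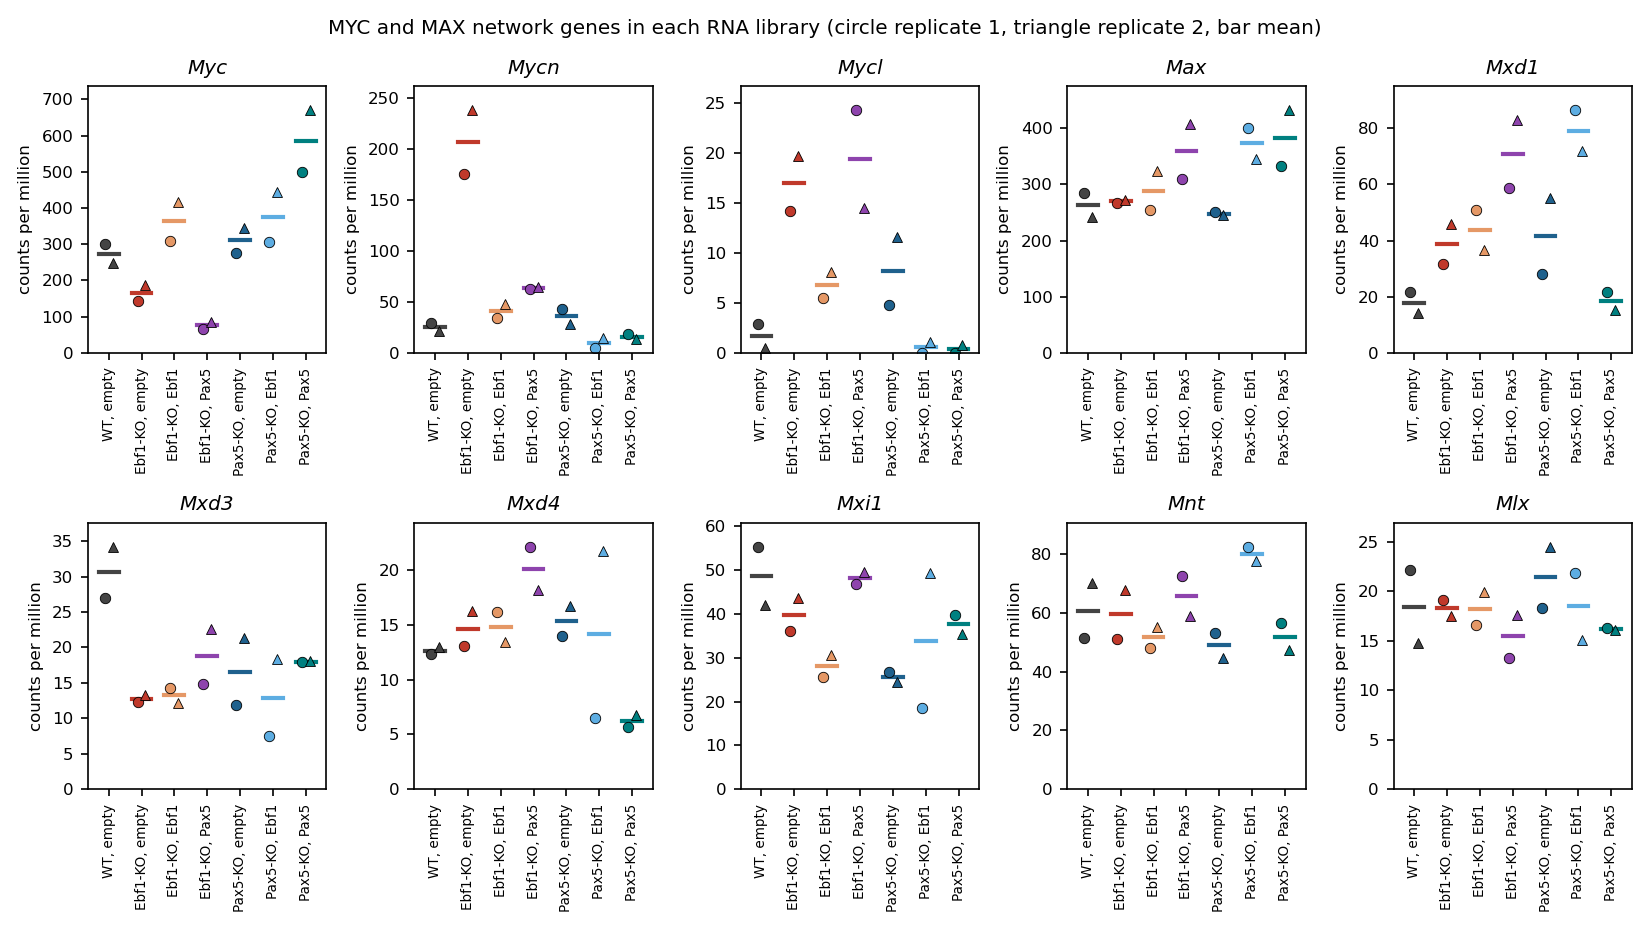
Level of each of the 10 genes in CPM (y axis, linear from 0, one panel per gene) in the 7 groups (x axis); circles are replicate 1, triangles replicate 2 and bars the mean of 2. The Myc panel runs from 66.8 CPM in Ebf1-deficient cells given Pax5 to 670 CPM in Pax5-deficient cells given Pax5, and the Mycn panel is highest in Ebf1-KO, at 176 and 238 CPM.

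Putting Ebf1 back into Ebf1-deficient cells raised Myc by a log2 fold change of 1.14 ± 0.25 (SE), with an edgeR quasi-likelihood adjusted p of 0.0214. Putting Pax5 into the same cells lowered Myc, with a log2 fold change of -1.13 ± 0.25 and an edgeR adjusted p of 0.0209. Myc and Mycn were the 2 of 10 members called in each of these comparisons, in which 2.97% and 4.08% of all tested genes were called. The 2 comparisons share the Ebf1-KO libraries as controls, as those in Pax5-deficient cells share Pax5-KO and those against wild type share the wild-type libraries. Set directly against each other, the Ebf1 and the Pax5 vector differed by 2.26 ± 0.26 for Myc (edgeR adjusted p 5.69e-05), the 1 member called where 10.2% of genes were. That difference lay between 2.03 and 2.44 with any 1 of the 4 libraries left out, with adjusted p of 0.000286 to 0.00218, and it was 2.21 between the libraries numbered 1 and 2.31 between those numbered 2. Within the same numbers the Ebf1 effect was 1.103 and 1.163, and the Pax5 effect -1.102 and -1.145. The 2 effects against the empty vector depended more on single libraries. The rise with Ebf1 was no longer called when either Ebf1-KO library (0.308 without replicate 1, 0.0665 without replicate 2) or Ebf1_KO+pMiG-Ebf1 replicate 2 (0.296) was left out, and the fall with Pax5 was not without Ebf1-KO replicate 2 (0.173) or either Ebf1_KO+pMiG-Pax5 library (0.155 and 0.0626).

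In Pax5-deficient cells the Pax5 vector gave a Myc log2 difference of 0.91 ± 0.25 with an edgeR adjusted p of 0.0600, which misses the threshold of 0.05. The adjusted p was 0.0150 with DESeq2 and 0.0337 with only the compared groups in the edgeR fit, and 0.00893 in edgeR with the replicate number as a block. Within replicate numbers the difference was 0.85 and 0.96. No member (0 of 10) was called by edgeR in this comparison, where 4.03% of genes were. At an unadjusted p under 0.05 there were 6 members, against 14.7% of all genes, and DESeq2 called 3, against 8.45% of all genes. The Ebf1 vector in the same cells gave Myc a log2 difference of 0.28 ± 0.25 (adjusted p 0.570). Against wild type, Myc was higher in Pax5_KO+pMiG-Pax5, by 1.09 ± 0.25 (edgeR adjusted p 0.0160), the 1 member called where 7.13% of genes were. That call was lost without wild type replicate 1 (0.0602), wild type replicate 2 (0.183) or Pax5_KO+pMiG-Pax5 replicate 2 (0.183). Within replicate numbers it was 0.74 and 1.43.

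Without any restored factor, Myc in Ebf1-KO stood at -0.73 ± 0.25 against wild type (edgeR adjusted p 0.0681). This value passed the threshold in DESeq2 (0.0304) and with only the compared groups in the fit (0.0309), and in edgeR with the replicate block (0.00996). Within replicate numbers it was -1.06 and -0.41. Both Ebf1-KO libraries lay below both wild-type libraries. In Pax5-KO the Myc difference from wild type was 0.18 ± 0.25 (adjusted p 0.691), and in Ebf1_KO+pMiG-Ebf1 it was 0.41 ± 0.25 (adjusted p 0.367), with overlapping libraries in the first case.

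The effect of the Pax5 vector on Myc therefore had opposite signs in the 2 knockouts, and the difference itself was tested. Pax5 effect in Pax5-KO minus Pax5 effect in Ebf1-KO was 2.04 ± 0.36 on the log2 scale for Myc (edgeR adjusted p 0.00624). It remained called with any 1 of the 8 libraries left out (adjusted p 0.0146 to 0.0447), and it was 1.95 and 2.11 within the 2 replicate numbers. In this comparison 3.16% of genes and 2 of 10 members were called, Myc and Mxd1. For the Ebf1 vector the difference between the knockouts was -0.86 ± 0.35 for Myc, with an adjusted p of 0.524. In that comparison edgeR and DESeq2 each called 0 of 10 members, edgeR called 0.612% of genes and DESeq2 1.75%, and 2 members, Myc and Mnt, had an unadjusted p under 0.05, as did 8.38% of genes.

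Mycn, the paralog known from early lymphoid and neural progenitors, was highest in Ebf1-KO and fell there with either vector. Its level was 29.3 and 20.9 CPM in wild type, 176 and 238 CPM in Ebf1-KO, 34.1 and 48.2 CPM in Ebf1_KO+pMiG-Ebf1 and 63.0 and 64.6 CPM in Ebf1_KO+pMiG-Pax5. In Pax5-deficient cells it was 43.2 and 28.7 CPM with the empty vector, 5.11 and 14.3 CPM with Ebf1 and 18.3 and 13.4 CPM with Pax5. Both Ebf1-KO libraries lay above every other library, and both libraries with Pax5 in Ebf1-deficient cells above the remaining ones. Mycn was 3.04 ± 0.42 log2 units higher in Ebf1-KO than in wild type (edgeR adjusted p 0.000120), the 1 member of 10 called in a comparison that called 14.7% of genes. It remained called with any 1 library left out (adjusted p 0.000437 to 0.00497), and within replicate numbers the difference was 2.58 and 3.51.

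Both vectors lowered Mycn in Ebf1-deficient cells, with differences within replicate numbers of -2.363 and -2.301 for Ebf1 and -1.48 and -1.88 for Pax5. With Ebf1 the log2 fold change was -2.33 ± 0.41 (edgeR adjusted p 0.00389), lost without Ebf1-KO replicate 2 (0.0535) or Ebf1_KO+pMiG-Ebf1 replicate 1 (0.0762). With Pax5 it was -1.70 ± 0.40 (adjusted p 0.0266), lost without any 1 of the 4 libraries (adjusted p 0.0823 to 0.195). In Pax5-deficient cells the Ebf1 vector lowered Mycn by a log2 fold change of -1.87 ± 0.41 (edgeR adjusted p 0.0198), the 1 member called where 3.6% of genes were. That call was lost without Pax5-KO replicate 1 (0.106), Pax5-KO replicate 2 (0.0594) or Pax5_KO+pMiG-Ebf1 replicate 1 (0.0631), and with only the compared groups in the fit (0.294), and the difference was -3.063 and -1.0001 within replicate numbers. The Pax5 vector in these cells gave -1.18 ± 0.40 with an adjusted p of 0.137. Myeloid markers summed to 615 and 542 CPM in Ebf1-KO, 326 and 266 CPM with Ebf1 and 715 and 631 CPM with Pax5, and in Pax5-deficient cells to 450 and 494 CPM with the empty vector, 412 and 301 CPM with Ebf1 and 155 and 163 CPM with Pax5. Their part in the Mycn levels was not tested.

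Mycl, the third paralog, was scarce in wild type and in Pax5-deficient cells given either vector. It had 2.90 and 0.458 CPM in wild type (56 and 8 counts), 14.2 and 19.7 CPM in Ebf1-KO, 5.45 and 8.04 CPM in Ebf1_KO+pMiG-Ebf1 and 24.3 and 14.5 CPM in Ebf1_KO+pMiG-Pax5. Pax5-KO libraries had 4.74 and 11.6 CPM. One library each of Pax5_KO+pMiG-Ebf1 and Pax5_KO+pMiG-Pax5 had 0 counts, and the other 43 and 28 counts. The 4 libraries of Ebf1-KO and Ebf1_KO+pMiG-Pax5 were the highest. In the main edgeR fit, over all 14 libraries after the filter on low counts, no comparison called Mycl. Its difference between Ebf1-KO and wild type was 3.33 ± 1.25 (edgeR adjusted p 0.0957). In Pax5-deficient cells it was -3.78 ± 1.29 with Ebf1 (0.123) and -4.26 ± 1.33 with Pax5 (0.104), each against the empty vector.

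Scaled by exon length, so that the paralogs can be set side by side, the family differed in makeup between the groups. Mycn made up 51.5% and 52.4% of the summed CPM per kb of Myc, Mycn and Mycl in Ebf1-KO, against 8.25% and 7.21% in wild type. With Ebf1 back the share of Mycn was 9.17% and 9.53%, and with Pax5 it was 41.3% and 38.9%. In Pax5-deficient cells it was 12.5% and 7.00% with the empty vector, 1.51% and 2.88% with Ebf1 and 3.28% and 1.82% with Pax5. The family sum was 124 ± 17.9 CPM per kb in wild type and 153 ± 30.9 in Ebf1-KO, which overlapped. It was lowest in Ebf1_KO+pMiG-Pax5 at 61.5 ± 3.72 and highest in Pax5_KO+pMiG-Pax5 at 250 ± 49.4 CPM per kb (SD, n = 2). These shares are shares of RNA, and no test was run on them.

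**Figure D2:**
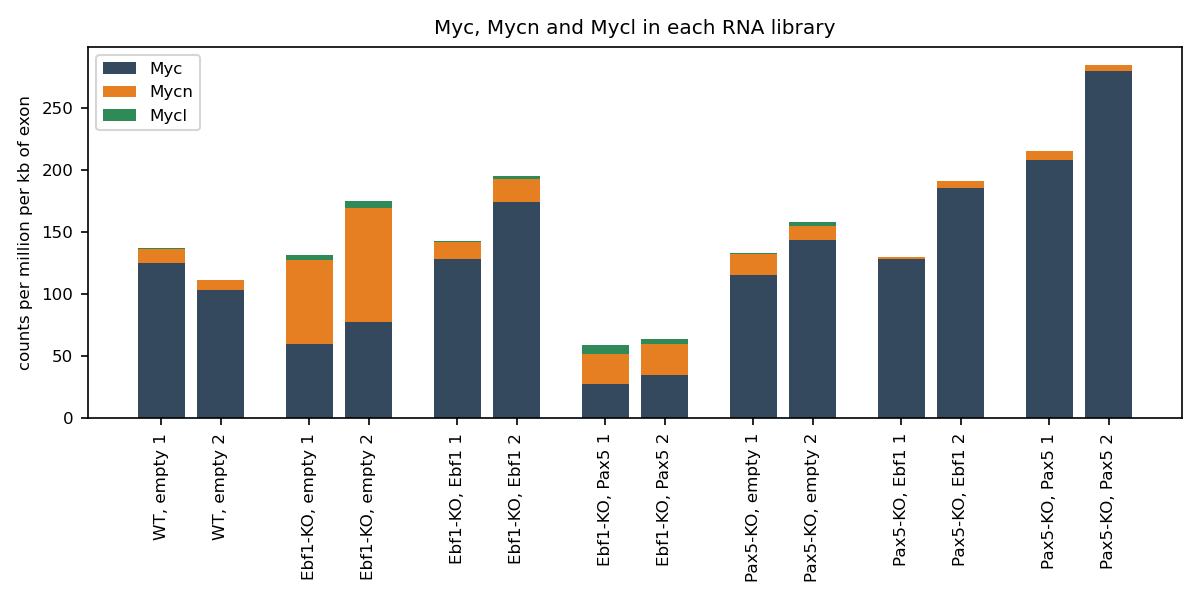
Stacked bars of Myc (dark), Mycn (orange) and Mycl (green) in CPM per kb of exon (y axis, from 0) in each of the 14 RNA libraries (x axis). Mycn fills 51.5% and 52.4% of the bar in the Ebf1-KO libraries and 8.25% and 7.21% in the wild-type libraries.

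Max, the shared partner of the MYC and MXD proteins, varied less than Myc or Mycn. It was between 242 and 432 CPM in all 14 libraries, with 284 and 242 CPM in wild type, 266 and 273 CPM in Ebf1-KO and 251 and 245 CPM in Pax5-KO. The highest libraries were one of Pax5_KO+pMiG-Pax5 at 432 CPM and one of Ebf1_KO+pMiG-Pax5 at 408 CPM, each with a lower partner, at 334 and 310 CPM. Pax5_KO+pMiG-Ebf1 was at 401 and 346 CPM. With either vector, both libraries of Pax5-deficient cells lay above both Pax5-KO libraries. The log2 difference was 0.59 ± 0.21 with Ebf1 (edgeR adjusted p 0.130) and 0.63 ± 0.21 with Pax5 (0.129). Max passed the threshold in none of the 12 comparisons of the main edgeR fit. DESeq2 called it higher with Ebf1 in Pax5-deficient cells (adjusted p 0.0432). Per kb of exon, Max in wild type was at 132 CPM per kb beside Myc at 114 and Mycn at 9.69.

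Mxd1, a MYC antagonist known from differentiating blood cells, was the antagonist with the most calls. It had 21.5 and 14.02 CPM in wild type, 31.8 and 46.1 CPM in Ebf1-KO, 51.0 and 36.5 CPM in Ebf1_KO+pMiG-Ebf1 and 58.6 and 82.9 CPM in Ebf1_KO+pMiG-Pax5. In Pax5-deficient cells it was 27.9 and 55.0 CPM with the empty vector, 86.4 and 71.8 CPM with Ebf1 and 21.7 and 15.1 CPM with Pax5. Wild type and Pax5_KO+pMiG-Pax5 were the 2 lowest groups and overlapped, and every other library lay above both. Mxd1 was the 1 member called in Pax5-KO against wild type, where 13.6% of genes were called, at 1.22 ± 0.37 (edgeR adjusted p 0.0421). It was also the 1 member called in Ebf1_KO+pMiG-Ebf1 against wild type, where 11.2% were, at 1.30 ± 0.37 (0.0369). Both calls rest on single libraries: the first was lost without wild type replicate 1 (0.0659), wild type replicate 2 (0.307) or Pax5-KO replicate 2 (0.479), and the second without any 1 of its 4 libraries (0.0633 to 0.303).

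In Pax5-deficient cells Mxd1 was 2.11 ± 0.38 higher with the Ebf1 than with the Pax5 vector (edgeR adjusted p 0.00391), the 1 member called where 6.82% of genes were. Without Pax5_KO+pMiG-Pax5 replicate 2 the adjusted p was 0.0748. Myc in the same comparison was at -0.64 ± 0.25 (adjusted p 0.145, and 0.0434 with the replicate block), with -0.70 and -0.59 within replicate numbers. The effect of Pax5 on Mxd1 differed between the knockouts by -2.04 ± 0.52 (edgeR adjusted p 0.0489), the opposite sign to Myc. With 1 library left out, that call held without Pax5-KO replicate 1 (0.0286) and was lost without each of the other 7 libraries of the comparison (0.0632 to 0.250). In Ebf1-KO against wild type Mxd1 was at 1.13 ± 0.37 (adjusted p 0.0566).

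**Figure D3:**
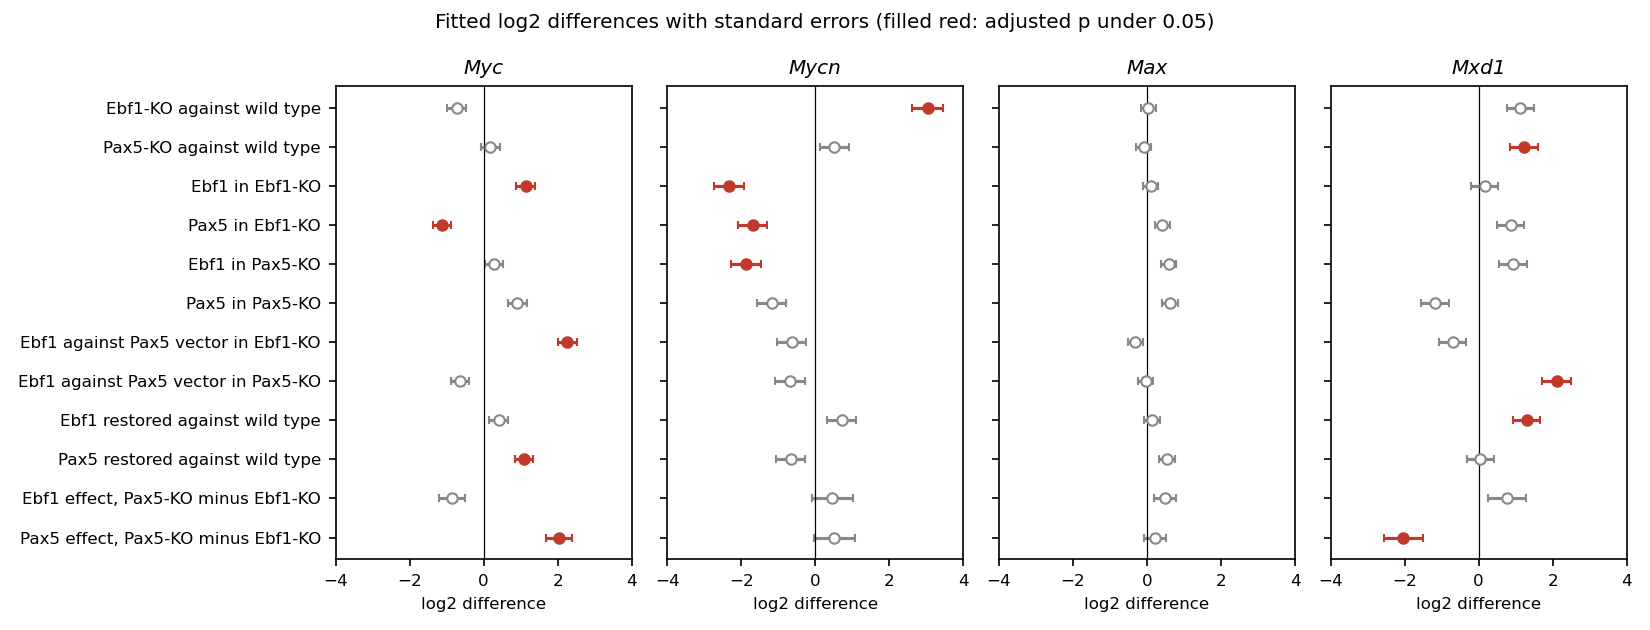
Fitted log2 differences (x axis) with standard errors for the comparisons (y axis), one panel per gene; filled red points had an edgeR adjusted p under 0.05. The largest called values in size are those of Mycn, at 3.04 in Ebf1-KO against wild type and -2.33 with Ebf1 in Ebf1-deficient cells. Next is Myc with the Ebf1 against the Pax5 vector in Ebf1-deficient cells, at 2.26.

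The remaining antagonists and Mlx passed the threshold in none of the 12 comparisons of the main edgeR fit. Mxd3, a MXD protein expressed in dividing cells, was at 27.0 and 34.2 CPM in wild type and between 7.51 and 22.6 CPM in the other 12 libraries. Both wild-type libraries were thus the highest, and the difference of Ebf1-KO (12.3 and 13.3 CPM) from wild type was -1.26 ± 0.46 with an adjusted p of 0.0828 (0.0263 with DESeq2 and 0.0200 with only the compared groups in the fit). Reads of Mxd3 and of Prelid1 overlap in the annotation, as do those of Mlx and Psmc3ip. In RefSeq Mxd1 also overlaps Gm38850 and Mxi1 overlaps Gm30541, neither of them a row of the count table, and a strand setting was not given in the sources used here.

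Mxd4, an antagonist of resting cells, was at 12.3 and 12.9 CPM in wild type, 13.0 and 16.2 CPM in Ebf1-KO and 22.1 and 18.1 CPM in Ebf1_KO+pMiG-Pax5. It was lowest in Pax5_KO+pMiG-Pax5, at 5.68 and 6.79 CPM, and its 2 libraries of Pax5_KO+pMiG-Ebf1 lay far apart, at 6.49 and 21.8 CPM. Mxi1 was at 55.3 and 42.1 CPM in wild type and 26.7 and 24.4 CPM in Pax5-KO, with no overlap. Its Pax5_KO+pMiG-Ebf1 libraries were likewise far apart, at 18.4 and 49.4 CPM. Mnt, the antagonist present in most cells whether or not they divide, ranged from 44.6 to 82.4 CPM over all libraries, with its highest pair, 82.4 and 77.5 CPM, in Pax5_KO+pMiG-Ebf1 against 53.2 and 44.6 CPM in Pax5-KO (DESeq2 adjusted p 0.0455). Mlx was even across the groups, between 13.3 and 24.5 CPM, with wild type at 22.1 and 14.8 CPM.

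Other network genes were measured beside the members: Mlxip, Mga and Mlxipl, the last at under 1 CPM in every library. Mlxip, which encodes the MLX partner MondoA, was at 271 and 333 CPM in wild type, 117 and 116 CPM in Ebf1-KO, 118 and 104 CPM in Ebf1_KO+pMiG-Ebf1 and 250 and 244 CPM in Ebf1_KO+pMiG-Pax5. It was at 114 and 92.2 CPM in Pax5-KO, 210 and 174 CPM in Pax5_KO+pMiG-Ebf1 and 208 and 196 CPM in Pax5_KO+pMiG-Pax5. Both knockouts lay below every library that carried the Pax5 vector. Relative to wild type, Mlxip stood at -1.38 ± 0.20 in Ebf1-KO (edgeR adjusted p 0.000154) and at -1.55 ± 0.20 in Pax5-KO (6.24e-05), both called with any 1 library left out. Pax5 raised it by 1.09 ± 0.19 in Ebf1-deficient cells (0.00441) and by 0.98 ± 0.19 in Pax5-deficient cells (0.00849). Ebf1 raised it in Pax5-deficient cells (0.90 ± 0.19, 0.0191) and gave -0.07 in Ebf1-deficient cells, though that difference between the knockouts was 0.97 with an adjusted p of 0.234. These 3 rises depended on single libraries. That with Pax5 in Ebf1-deficient cells was lost without Ebf1-KO replicate 1 (0.0777) or 2 (0.0556). That in Pax5-deficient cells was lost without Pax5-KO replicate 2 (0.127), Pax5_KO+pMiG-Pax5 replicate 1 (0.107) or replicate 2 (0.0532). The rise with Ebf1 was lost without Pax5-KO replicate 2 (0.196) or Pax5_KO+pMiG-Ebf1 replicate 1 (0.0877), and with only the compared groups in the fit (0.267).

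Txnip, an inhibitor of glucose uptake that MondoA and MLX activate, was highest in Ebf1_KO+pMiG-Pax5, at 451 and 429 CPM against 172 and 144 CPM in Ebf1-KO. Pax5 raised it there by 1.48 ± 0.21 (edgeR adjusted p 0.000901). In Pax5-deficient cells Txnip was at 154 and 185 CPM with the empty vector and 119 and 97.7 CPM with Pax5. The effect of Pax5 differed between the knockouts by -2.13 ± 0.30 (adjusted p 0.00136), the reverse of the sign seen for Myc. Both Txnip calls held with any 1 library left out. Arrdc4, the other of the 2 tested genes listed as MLX-dependent, had 0 counts in both wild-type libraries. It had 173 and 246 counts in Ebf1-KO and 133 and 205 counts in Pax5-KO. Against wild type Arrdc4 was called higher in Ebf1-KO (edgeR adjusted p 0.00506) and in Pax5-KO (0.00765). Mlxip was lower in both, and Txnip was not called. The Arrdc4 call in Pax5-KO was lost when either wild-type library was left out. Mga, a repressor that pairs with MAX, was lower in Pax5-KO than in wild type (-0.73 ± 0.19, adjusted p 0.0187), a call lost without wild type replicate 1 (0.0656), wild type replicate 2 (0.102) or Pax5-KO replicate 2 (0.209).

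Genes activated by MYC were followed through a list of 30, all tested, that covers ribosome production (Gnl3, Wdr43, Nop56, Npm1), metabolism (Ldha, Shmt2, Odc1), protein folding (Hspd1, Hspe1) and iron uptake (Tfrc). Where the 2 vectors were set against each other in Ebf1-deficient cells, 14 of 30 were higher with Ebf1 than with Pax5 and 0 lower (median log2 difference 0.94, against 0.02 over all tested genes, of which 4.74% were called higher). Gnl3 (1.99 ± 0.22, edgeR adjusted p 3.59e-05), Shmt2 (1.37 ± 0.22, 0.000926) and Wdr43 (1.11 ± 0.20, 0.00246) led, and these 3 were called with any 1 library left out. Leaving out any 1 of the 4 libraries left 3 to 6 calls, and DESeq2 made 18. Against the empty vector, Pax5 lowered 4 of 30 and raised 0 (median -0.62, against -0.01 over all genes, 0.935% called lower), with Gnl3 at -1.42 ± 0.21 (0.00125), and Nop56, Wdr43 and Tfrc as the others. One library left out gave 1 to 2 calls, Gnl3 each time. Ebf1 against the empty vector gave 0 calls by edgeR and 0 by DESeq2, with 6 at an unadjusted p under 0.05 (median 0.28).

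In Pax5-deficient cells the list stood the other way round. With Pax5, 2 of 30 were higher than with the empty vector (median 0.54, 1.64% of all genes called higher), and 0 to 2 with 1 library left out. Between the vectors, 4 of 30 were lower with Ebf1 than with Pax5 (median -0.62, 3.18% of all genes called lower), led by Npm1 at -1.39 ± 0.30 and Ldha at -1.17 ± 0.26, with 0 to 10 calls when 1 library was left out. Both of these calls were lost without Pax5_KO+pMiG-Ebf1 replicate 1 or Pax5_KO+pMiG-Pax5 replicate 2, and with only the compared groups in the fit (0.0868 and 0.139). The difference in Pax5 effect between the knockouts was called for 7 of 30, all higher in Pax5-deficient cells (median 1.14, 0.735% of all genes called higher). Wdr43 (1.65 ± 0.28), Nop56 (1.66 ± 0.32), Gnl3 (1.496 ± 0.30) and Ldha (1.53 ± 0.36) were among them, and 1 to 6 were called with 1 library left out, Wdr43 each time. Odc1, the first enzyme of polyamine synthesis, was the 1 gene of the list lower with Ebf1 in Pax5-deficient cells, at -1.31 ± 0.28 (1.85% of all genes called lower), a call lost without either Pax5-KO library or Pax5_KO+pMiG-Ebf1 replicate 1, and with only the compared groups in the fit (0.201).

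Against wild type edgeR called 0 genes of the list lower in these 4 comparisons, where DESeq2 called 1 lower in Ebf1-KO and 1 in Pax5-KO. In Ebf1-KO 5 of 30 were higher (8.02% of all genes called higher), among them Odc1 at 1.26 ± 0.28 (adjusted p 0.0663 without wild type replicate 2), and in Pax5-KO 5 were (8.65%), with Odc1 at 1.95 ± 0.29. In Ebf1_KO+pMiG-Ebf1 7 of 30 were higher (6.94%) and in Pax5_KO+pMiG-Pax5 14 were (4.82%, median 0.98). Leaving out 1 library gave 0 to 3, 1 to 2, 1 to 2 and 0 to 10 calls in these 4 comparisons. Summed over the list, the level was 4052 and 5084 CPM in Ebf1_KO+pMiG-Pax5, below the other 12 libraries, and 9715 and 14128 CPM in Pax5_KO+pMiG-Pax5, above them, with 6897 and 6055 CPM in wild type. Markers of dividing cells (15 genes) summed to 9447 and 8382 CPM in wild type. In Ebf1-deficient cells it was 4161 and 5390 CPM with the empty vector, 6551 and 7711 CPM with Ebf1 and 4511 and 5576 CPM with Pax5. In Pax5-deficient cells it was 5411 and 5722, 6572 and 8100, and 7959 and 8868 CPM in the same order. Their median log2 difference was 0.62 for the Ebf1 against the Pax5 vector in Ebf1-deficient cells. With Pax5 against the empty vector it was -0.19 in Ebf1-deficient and 0.56 in Pax5-deficient cells. Against wild type it was -0.32 in Ebf1-KO and -0.20 in Pax5-KO. The part of these markers in the list's levels was not tested.

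**Figure D4:**
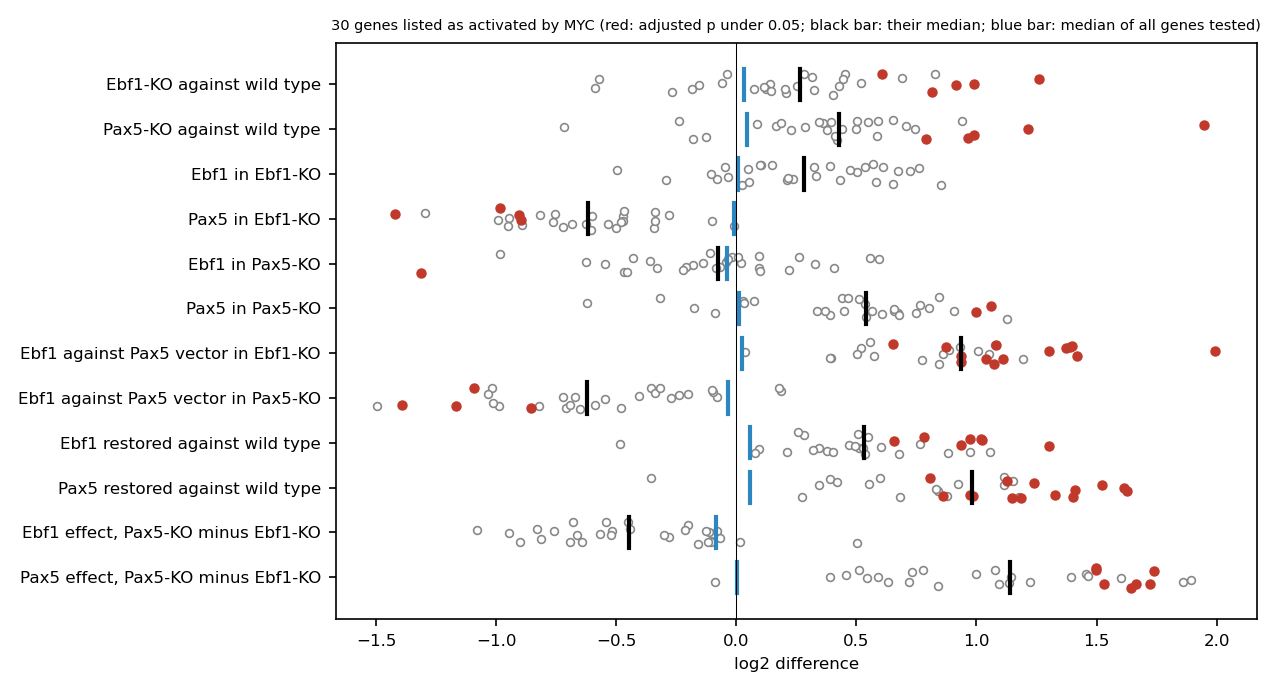
Log2 difference (x axis) of each of the 30 genes listed as activated by MYC in each comparison (y axis); red points had an edgeR adjusted p under 0.05, the black bar is the median of the 30 and the blue bar the median of all genes tested. The median is -0.62 with Pax5 in Ebf1-deficient cells, 0.54 with Pax5 in Pax5-deficient cells and 1.14 for the difference in Pax5 effect between the knockouts.

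Of 7 tested genes that MYC is known to repress, 3 were higher with Ebf1 than with the empty vector in Ebf1-deficient cells (2.21% of all genes called higher): the stress-response genes Ndrg1 (2.86 ± 0.53) and Ndrg2 (2.81 ± 0.52), and Cdkn1a (1.44 ± 0.33), which encodes the cell-cycle inhibitor p21. Leaving out 1 library gave 0 to 2 calls. Ndrg1 was lost without Ebf1-KO replicate 1 (0.133), Ndrg2 without Ebf1-KO replicate 1 (0.102) or 2 (0.0702), and Cdkn1a without Ebf1-KO replicate 1 (0.383) or either library given Ebf1 (0.0554 and 0.301). Ndrg1 was at 4.26 and 7.36 CPM in Ebf1-KO and 41.2 and 43.1 CPM in Ebf1_KO+pMiG-Ebf1. Pax5 in the same cells gave 0 of 7 calls by edgeR, 1 by DESeq2 and 1 at an unadjusted p under 0.05. Against wild type the list was mixed. In Ebf1-KO, where 14.7% of all genes were called, Ndrg2 (3.30) and Cdkn1a (1.23) were higher, and Cdkn2c (-3.32) and Cdkn1b (-1.42 ± 0.30), which encode the inhibitors p18 and p27, were lower. Of these, Cdkn2c was lost without Ebf1-KO replicate 1 (0.0539) and Cdkn1a without either wild-type library (0.0602 and 0.186) or Ebf1-KO replicate 2 (0.263). In Pax5-KO, where 13.6% were called, Ndrg2 (7.22), Ndrg1 (2.21) and Cdkn1a (1.57) were higher and Cdkn1b was lower (-0.96 ± 0.29). Ndrg2 had 10 and 2 counts in wild type, so its fitted folds depend on the prior count. Cdkn1a was lost here without wild type replicate 2 (0.0816), and Ndrg1 when either Pax5-KO replicate 2 (0.0864) or wild type replicate 2 (0.137) was left out. The Cdkn1b call in Ebf1-KO was lost without Ebf1-KO replicate 2 (0.0704), and that in Pax5-KO without any 1 of the 4 libraries (0.125 to 0.177) and without a filter on low counts (0.0574).

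MYC cofactors (17 genes) had at most 1 call in any comparison, such as Hdac1, higher in Ebf1-KO than in wild type at 0.92 ± 0.28 (edgeR adjusted p 0.0378), where 8.02% of all genes were. The Hdac1 call was lost without wild type replicate 2 (0.310) or either Ebf1-KO library (0.129 each). Among 12 genes of MYC protein turnover, Ppp2r5a, a subunit of phosphatase PP2A, was lower in Ebf1-KO (-0.97 ± 0.19, 14.7% of all genes called) and higher with Ebf1 (0.97 ± 0.19, 2.97% called) and with Pax5 (1.00 ± 0.19, 4.08% called). The first call held with any 1 library left out (0.0118 to 0.0377), that with Ebf1 was lost without any 1 (0.0528 to 0.153), and that with Pax5 was lost without Ebf1-KO replicate 1 (0.138) or Ebf1_KO+pMiG-Pax5 replicate 1 (0.0621). Cip2a (C330027C09Rik in the table), an inhibitor of PP2A that protects MYC, and Usp37 were higher with Ebf1 than with Pax5 in Ebf1-deficient cells, at 0.88 ± 0.24 and 0.66 ± 0.19, where 4.74% of all genes were called higher. Cip2a was lost without Ebf1_KO+pMiG-Ebf1 replicate 1 (0.173) or 2 (0.0944) or Ebf1_KO+pMiG-Pax5 replicate 2 (0.217), and Usp37 without any 1 library (0.0979 to 0.255).

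Of the 5 tested genes around Myc, Asap1 was lower in Ebf1-KO than in wild type (-1.99, called with any 1 library left out), and Fam84b (1.15) and Trib1 (3.03) were higher, in the comparison that called 14.7% of all genes. Fam84b was lost without wild type replicate 1 (0.263) or either Ebf1-KO library (0.123 and 0.140), and Trib1, with 27 and 1 counts in wild type, without wild type replicate 2 (0.189) or Ebf1-KO replicate 2 (0.334) and with only the compared groups in the fit (0.0871). With Pax5 in Ebf1-deficient cells Fam84b was the 1 neighbour called, and it was lower, where 0.935% of all genes were called lower. Its level there was 34.6 and 53.3 CPM, against 137 and 140 CPM in Ebf1-KO. Asap1 was higher with Ebf1 in Ebf1-deficient (1.16 ± 0.23, 2.97% of genes called) and in Pax5-deficient cells (1.01 ± 0.23, 3.6% called). The first of these calls was lost without any 1 library (0.0797 to 0.138), and the second without Pax5-KO replicate 1 (0.0761), replicate 2 (0.218) or Pax5_KO+pMiG-Ebf1 replicate 2 (0.0528) and with only the compared groups in the fit (0.249).

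The genes most like each member over the 14 libraries were found by Pearson's r of log2 CPM, as a description over libraries that share groups. For Myc they were Pprc1 (0.976), Pde12 (0.971) and Hells (0.965). For Mycn they were Samsn1 (0.962), Hlx (0.939) and Rnf130 (0.936), and for Mycl Bex6 (0.933), Ctsh (0.916) and Stom (0.910). Mxd1 was most like Tmem106a (0.922), Foxo3 (0.901) and Atg13 (0.896). The best match of Max reached 0.860 (Nop9) and that of Mlx 0.833 (Cars). Between members, Myc and Mycn had a Pearson r of -0.59, and Mycn and Mycl one of 0.82.

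All 10 members had the centre of an EBF1 peak within 100 kb of their start, as did 67.8% of all genes in the table and 85.0% of the genes tested. The list held 17230 peaks of 320 bases each in mm10 coordinates, and peak heights and scores are the authors' own values. The number of peaks within 100 kb was 8 for Mycl and Mxd3, 6 for Mnt and Mlx, 5 for Mxi1, 3 for Mxd4 and 2 for each of Myc, Mycn, Max and Mxd1, and the median over all genes was 2. Within 1 kb of the start lay peaks of Mycl, Mxd1, Mxd3 and Mnt, 4 of 10 against 17.0% of all genes. Within 50 kb 8 members had one (56.6% of all and 74.9% of tested genes), and within 25 kb 7 (44.2% and 61.4%). All 10 had a peak at or above the median score of 41 within 100 kb (52.8% and 67.8%). Of the 10, 9 were the nearest gene of at least 1 peak, all but Mlx, against 35.7% of all genes. For this count and the count within 1 kb, the share among tested genes was not computed. In the wider windows that share lay above the share of all genes.

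Myc had a peak at chr15:61983683-61984003, centred 1498 bases before its start, with a normalized tag count of 64.9, which ranked 2501 by score. A second, weak peak lay 5701 bases after the start with a tag count of 12.2. The Mycl peak at chr4:122995855-122996175 was centred 84 bases after the start (tag count 66.0), and that of Mnt at chr11:74830396-74830716 lay 368 bases before it (75.5). The Mxd1 peak was 476 bases before the start (29.4), and Mxd3 had peaks 0.781 and 2.63 kb before it (25.0 and 24.4). Mxd4 had the strongest peak near any member, at chr5:34259208-34259528, with a tag count of 288.5 and rank 44, but it lay 71.7 kb before the start and nearest to Zfyve28; its own nearest peak was 2004 bases before the start (66.6). Mycn and Max, by contrast, had no peak nearer than 45.761 and 54.979 kb, and the nearest of Mlx was at 56.639 kb. Peaks thus lay near the starts of members called in the main edgeR fit (Myc, Mxd1) and of members not called there (Mnt, Mycl, Mxd3, Mxd4). They lay far from Mycn, which was called, and from Max and Mlx, which were not. The nearest peak of Mxi1, also not called, lay 10.302 kb from its start. These peaks come from a pre-B line in which RNA of the members was not analysed here.

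**Figure D5:**
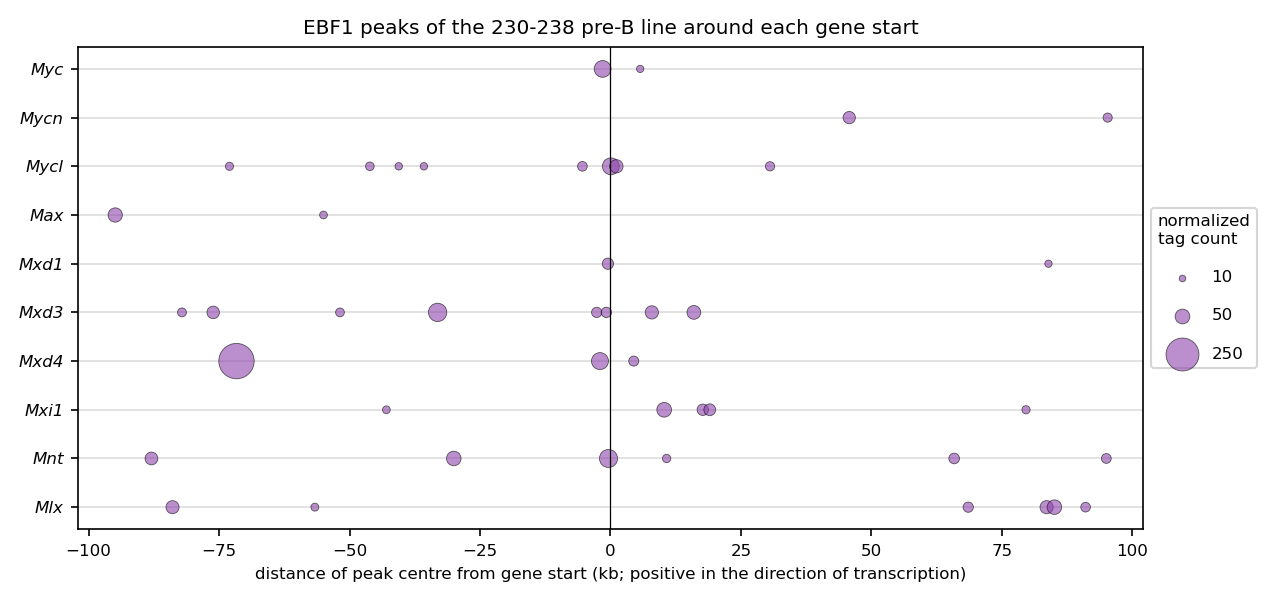
Position of each EBF1 peak centre within 100 kb of the start of the 10 genes (x axis, kb, positive in the direction of transcription; one row per gene), with point size by normalized tag count. Peaks sit close to the starts of Mycl, Mnt, Mxd1, Mxd3, Myc and Mxd4, and none lies within 45 kb of the starts of Mycn, Max and Mlx.

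Beyond 100 kb, 25 peaks lay up to 2 Mb downstream of Myc and 3 upstream. The strongest downstream were at chr15:63636716-63637036 (1.65 Mb from the start, score 240, rank 190) and chr15:62698708-62699028 (0.714 Mb, score 215). In the pooled contact profiles, fragments within 5 kb of the 11 peaks at 1 to 2 Mb took 5.79% of the chromosome 15 contacts of the Myc start in wild type (Wilson 95% interval 5.31 to 6.32, of 8147 contacts) and 4.75% in Ebf1-deficient cells (4.43 to 5.09, of 15748). Near the 14 peaks at 0.1 to 1 Mb it was 6.05% (5.55 to 6.59) and 7.20% (6.81 to 7.62). The whole stretches moved likewise, from 27.3% to 23.8% at 1 to 2 Mb and from 32.7% to 40.3% at 0.1 to 1 Mb. There is 1 profile per genotype, so these intervals cover counting error only and there is no replicate check.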

How the data were processed

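Exon read counts per gene, not normalized, are as deposited by the authors, aligned to mm10. The submitters' processing notes name STAR 2.6.0b-1, HOMER 4.8 and DESeq2 among their tools; a strand setting was not given in the sources used here. Counts of 14 libraries in 7 groups entered one fit with edgeR 4.0.16 (R 4.3.3; TMM scaling, filterByExpr, quasi-likelihood test), and p-values were adjusted by Benjamini-Hochberg over all 14550 tested genes, with a threshold of 0.05. Standard errors are the log2 fold change over the root of F. CPM values use TMM-scaled library sizes, and log2 CPM adds a prior count of 2. For the EBF1 peaks, the normalized tag count (a signal), the peak score and the fold over input are the authors' deposited values; distances run from peak centre to gene start. The virtual contact profiles hold deposited contact counts pooled per genotype by the authors.

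Members and gene lists were chosen with earlier results of these data known. The genes named are all 10 members, the network genes Mlxip, Mga and Mlxipl, and from each list up to 4 genes by smallest p among those called in a comparison; genes named beyond these were chosen after their values were seen. Alternatives were DESeq2 1.42.0, other scaling, no filter or a filter at 1 CPM, a replicate block (the headers give each replicate number its own run tag, of unstated meaning; deviations of same-numbered libraries correlated at -0.059 to 0.013 for pairs with wild type and 0.076 to 0.236 for the others), only the compared groups, and each library left out, where the lone library of a group is assumed to vary like the other groups. For peaks, other windows and a score minimum were tried.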

Additional observations from a re-analysis of the deposited data

Results flagged for a closer look

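The difference in the effect of Pax5 between the 2 knockouts (Pax5-deficient minus Ebf1-deficient cells) passed its own edgeR test for 2 members and 5 of the related genes the text names. On the log2 scale it was 2.04 for Myc and -2.04 for Mxd1. It was -2.13 for Txnip, 1.65 for Wdr43, 1.66 for Nop56, 1.496 for Gnl3 and 1.53 for Ldha. Each group has 2 libraries. Early B-cell markers summed to 153 and 171 CPM in Ebf1-KO and 1063 and 1170 CPM in Ebf1_KO+pMiG-Pax5. In Pax5-KO they summed to 1577 and 1687 CPM, and in Pax5_KO+pMiG-Pax5 to 5840 and 6700 CPM. For the same difference of effects their median was -1.08, with 0 of 12 called higher and 1 lower. The median of markers of dividing cells was 0.55, with 15 of 15 above 0, 1 called higher and 0 lower. In this comparison 3.16% of all genes were called. The part of either set of markers in these differences was not tested.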

How the results depend on the processing

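For 38 member values followed through 396 alternatives, 318 kept direction and side of the threshold, 36 fell below it, 40 passed it and 2 changed sign. Members called in Ebf1-KO against wild type went from 1 to 4 with DESeq2, 4 without a filter, 2 with a filter at 1 CPM and 5 with only the compared groups. In Pax5-KO against wild type 1 became 2 without a filter and 0 with only the compared groups. For Ebf1 in Pax5-deficient cells 1 became 3 with DESeq2, 2 without a filter and 0 with only the compared groups. For Pax5 in those cells 0 became 3, 4 and 3 under the same settings and 1 with the filter at 1 CPM. Ebf1 against Pax5 vector in Ebf1-deficient cells gave 2 rather than 1 with only the compared groups; Ebf1 restored against wild type gave 2 with DESeq2, without a filter and with only the compared groups; and the Pax5 effect difference gave 1 rather than 2 with the filter at 1 CPM.

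With the replicate number as a block, 2 members were called in Ebf1-KO against wild type, 1 for Pax5 in Pax5-deficient cells and 2 between the vectors in Pax5-deficient cells, and it changed none of the other 9 member counts. Over all tested genes the block called 17.2%, 5.42% and 9.48% in these 3 comparisons. Other settings called 13.9% to 21.6% in Ebf1-KO and 13.7% to 19.9% in Pax5-KO against wild type, up to 7.12% for Ebf1 and 9.37% for Pax5 in Ebf1-deficient cells, 0.515% to 11.4% for Ebf1 and up to 8.45% for Pax5 in Pax5-deficient cells, up to 17% and 1.55% to 15.3% between the vectors in the 2 knockouts, and up to 18.9% and 14% for Ebf1 and Pax5 restored against wild type, 1.75% for the Ebf1 and 9.31% for the Pax5 effect difference.

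Leaving out 1 library gave 1 called member in Ebf1-KO against wild type, 0 to 1 in Pax5-KO against wild type, for Ebf1 and for Pax5 in Ebf1-deficient cells and for Pax5 restored against wild type, 0 to 2 for Ebf1 in Pax5-deficient cells, 0 to 3 between the vectors there, 0 for Ebf1 restored against wild type and 1 to 2 for the Pax5 effect difference. Fewer libraries also called fewer genes of all tested in most comparisons: 8.97% to 11.1% in Ebf1-KO and 6.95% to 11.2% in Pax5-KO against wild type, 1.25% to 1.71% for Ebf1 and 1.03% to 2.3% for Pax5 in Ebf1-deficient cells, 0.79% to 15% for Ebf1 and 1.53% to 2.71% for Pax5 in Pax5-deficient cells, 4.3% to 6.29% and 2.31% to 17.9% between the vectors, 5.96% to 8.23% and 2.95% to 5.02% for Ebf1 and Pax5 restored, and 0.316% to 4.31% and 0.9% to 2.6% for the 2 effect differences. The Myc difference with Ebf1 in Pax5-deficient cells ran from -0.015 to 0.50, the low value without Pax5_KO+pMiG-Ebf1 replicate 2, and that of Mxi1 between the vectors there from -0.99 to 0.41. The cause was not tested. Members with a peak numbered 8 within 50 kb, 7 within 25 kb and 9 by nearest gene. With 2 libraries a group, each group says little about its own spread. The main p-values use a spread estimated over all 7 groups together, also those outside a comparison.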
